A study of Mus musculus with 10 samples.

Results

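The interaction of a NIK allele and a Notch2 allele was measured in sorted mouse B lineage cells, that is, how far the level of each gene in cells with both alleles departed from what the cells with either allele alone predict. Of 10 RNA sequencing libraries, the 8 of pre-malignant cells of 4 genotypes enter it, 2 for each. The other 2 are lymphoma libraries, which carry both alleles. They enter the gene filter, the scaling and the estimate of the spread, and no contrast. The cells were sorted from lymph node of C57BL/6 mice. Control cells were Wild-type, with no Cre named. NF-kB-activated cells were Rosa-NIKdeltaT3flSTOP x CD19Cre, Notch-labelled cells Rosa-Notch2ICN x CD19Cre, and doubly activated cells Rosa-NIKdeltaT3flSTOP x Rosa-Notch2ICN x CD19Cre. The Cre recombinase is active in the B lineage, so that both alleles are switched on from early B cell development, and control cells lack the Cre as well as the alleles. Control, NF-kB-activated and doubly activated cells are labelled marginal zone precursor B cells, whereas the Notch-labelled cells are labelled marginal zone B cells, although their files bear a name in the style of the precursors (IMZP, against IMZB in the titles). Genotype and cell stage therefore cannot be told apart in the Notch-labelled group. Where the NIK allele is described beside Notch2, doubly activated cells are compared with Notch-labelled cells, which also differ in that label. Age, sex and the number of animals are not given in the sources used here, and p-values measure only the spread between the libraries, which may be technical.

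NIK, the kinase encoded by Map3k14, starts the non-canonical NF-kB pathway: it is normally kept low by a TRAF3-dependent ubiquitin ligase, and once stable it drives the processing of the Nfkb2 product into a nuclear subunit that pairs with RelB. Survival of mature B cells through the BAFF receptor uses this route. Notch2 is cut after ligand binding, and its intracellular domain joins RBPJ and Mastermind proteins on DNA to switch on targets such as Hes1 and Dtx1. Notch2 signalling is required for marginal zone B cells, which in rodents sit mainly at the border of the splenic follicle and answer blood-borne antigens quickly.

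The interaction of a gene is its log2 level in doubly activated cells, minus that in NF-kB-activated cells, minus that in Notch-labelled cells, plus that in control cells. It is 0 when the 2 alleles multiply each other's effects, positive when doubly activated cells lie above that product and negative when they lie below. Levels are CPM, counts scaled to a common library total, given for libraries 1 and 2 or as mean ± SD (n = 2), and the interaction is given ± SE with the adjusted p of edgeR over 15604 tested genes. Results are confined to the 9463 genes with a mean of at least 5 CPM in each of the 3 precursor groups, so that no departure rests on a gene seen only in the Notch-labelled libraries. Every value is a log2 departure of a gene from itself in other groups, and levels are not compared between genes.

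The libraries held 16380889 to 19267466 estimated counts. Libraries of different precursor groups correlated at 0.954 to 0.972 (log2 CPM across genes, which are not independent replicates), whereas the Notch-labelled libraries correlated with them at 0.821 to 0.845. One heavy chain segment, Ighv1-55, took 92.8% (95% Wilson interval 92.2% to 93.5%) and 93.8% (93.1% to 94.3%) of the Ighv counts of Notch-labelled libraries 1 and 2. The light chain segment Igkv12-41 took 92.7% and 94.1% of their Igkv counts. In any other pre-malignant library the top segment took at most 7.29% (6.76% to 7.86%) of Ighv and 7.13% of Igkv counts. The lymphoma libraries were not read for this. Similar segments can share counts, and the intervals cover counting error only. Both Notch-labelled libraries thus share their dominant segments, and whether they hold a single expansion or are independent samples was not tested. The 12 stromal markers summed to 962 and 1230 CPM in Notch-labelled libraries and to 192 to 314 CPM in the others, where 4 of the 12 were at 0 in each group, and the 16 T cell markers to 506 and 500 against 184 to 275 CPM. Single T cell genes differed: Trac, of the T cell receptor, stood at 1.10 and 1.28 CPM in Notch-labelled and 1.29 and 1.90 CPM in control libraries. Cd3e stood at 6.44 and 5.09 CPM against 1.72 and 3.59 CPM. The 15 neutrophil markers summed to 487 and 141 CPM in NF-kB-activated, 78.2 and 78.6 CPM in Notch-labelled, 0.614 and 19.4 CPM in control and 6.9 and 0.458 CPM in doubly activated libraries. The 9 erythroid markers summed to 83.4 and 33.9, 55.7 and 50.3, 5.84 and 16.1, and 17.8 and 3.01 CPM in the same order. The 20 macrophage markers summed to 102 and 274 CPM in control, 307 and 225 CPM in NF-kB-activated, 178 and 159 CPM in Notch-labelled and 113 and 112 CPM in doubly activated libraries, where only control overlapped other groups. Y-linked genes (4 summed) reached 23.7 and 25 CPM in Notch-labelled libraries, 197 and 48 CPM in control and 320 to 522 CPM in the other groups. The part of these differences in the interaction was not tested. In bulk RNA, fewer cells of a type and less RNA per cell cannot be told apart.

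B cell markers were present in all 4 groups. Cd79a, a signalling chain of the B cell antigen receptor, had a mean of 2014 CPM in control, 1923 CPM in NF-kB-activated, 676 CPM in Notch-labelled and 1566 CPM in doubly activated cells. The marginal zone label of the Notch-labelled cells was met in part. Cd9, a tetraspanin of marginal zone B cells, was higher there (141 ± 4.0 CPM) than in control (30.4 ± 7.65 CPM), whereas Cr2, the complement receptor CD21 that marks this subset, was lower (110 ± 0.643 against 2384 ± 724 CPM). Fcer2a, the low affinity IgE receptor CD23 of follicular B cells, was low in them too (10.1 ± 1.03 against 600 ± 97.1 CPM).

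The gene of each allele was read next. Map3k14 stood at 103 and 130 CPM in control, 220 and 217 CPM in NF-kB-activated, 36.5 and 33.3 CPM in Notch-labelled and 244 and 255 CPM in doubly activated libraries. Both groups with the NIK allele thus lay above both without it. Map3k14 was higher by 0.91 on the log2 scale in NF-kB-activated than in control cells (adjusted p = 5.98e-05). It was higher by 2.84 in doubly activated than in Notch-labelled cells (adjusted p = 1.34e-09), an interaction of 1.93 ± 0.14 (adjusted p = 6.19e-07). Counts cannot separate the allele's transcript from the native one. Notch2 stood at 651 and 689 CPM in control, 794 and 772 CPM in NF-kB-activated, 284 and 278 CPM in Notch-labelled and 702 and 752 CPM in doubly activated libraries. No group with the Notch2 allele had more Notch2 counts than its counterpart without it: the Notch-labelled libraries were lowest of all, and doubly activated and NF-kB-activated cells differed by -0.11 (adjusted p = 0.447). The interaction of Notch2 was 1.15 ± 0.12 (adjusted p = 8.42e-06).

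Of the 9463 reported genes, 5421 (57.3%) departed from the product at an adjusted p under 0.05, against 7724 of all 15604 tested (49.5%; 23.9% positive and 25.6% negative). The departure was positive for 3266 (34.5% of reported genes) and negative for 2155 (22.8%). It exceeded 2-fold for 2249 genes, 1414 positive and 835 negative, and 8-fold for 187 positive and 32 negative ones. The median interaction of reported genes was 0.126 and the median SE 0.159. Scaling by library size alone moved that median to -0.051 and the positive share of the calls from 60.2% to 47.2%. The balance of the signs thus follows the scaling. It also follows the limit of 5 CPM, which is not applied to Notch-labelled cells, since 48.3% of all called genes were positive. Medians of gene lists below are over reported members only. With a test for departures beyond 1.5-fold, 1689 positive and 993 negative genes passed. Adding differences in CPM in place of multiplying ratios kept the sign for 3249 of the positive and 2153 of the negative genes.

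**Figure D1:**
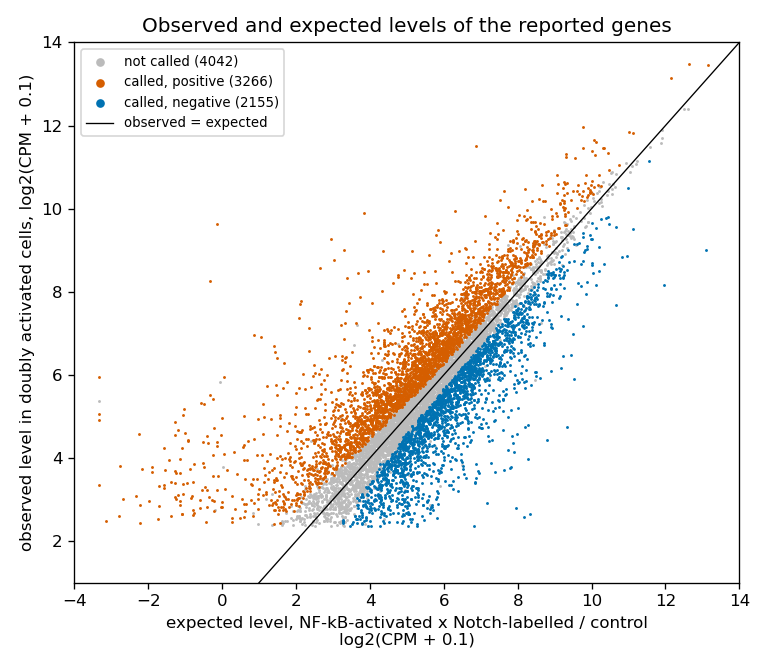
Level of each of 9463 reported genes in doubly activated cells (vertical, log2 of mean CPM + 0.1) against the level expected from the product of both ratios (horizontal, same scale); the line marks equality. The 3266 genes called positive lie above it and the 2155 called negative below it.

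An interaction is the same number whichever of the 4 groups stands out, so for each gene it was read which group had both libraries above or below all 6 others. The Notch-labelled libraries were below all others for 2940 of the 3266 positive genes (90%, against 40.9% of all reported genes) and above all others for 1908 of the 2155 negative genes (88.5%, against 30.1%). Both doubly activated libraries were above all others for 750 positive genes (23%, against 11.8%) and below for 387 negative ones (18%, against 7%). The control stood above the rest in 697 of the positive genes (21.3%, against 10% of all reported genes) and below it in 381 of the negative ones (17.7%, against 7.03%), and a gene can appear under several groups. The doubly activated libraries stood apart while the Notch-labelled ones did not in 238 genes, 149 positive and 89 negative, a set formed after the values were seen. The interaction thus gathers several shapes of response, and the genes below are ordered by the group that stood apart. These placements describe the contrast itself and carry no test.

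**Figure D2:**
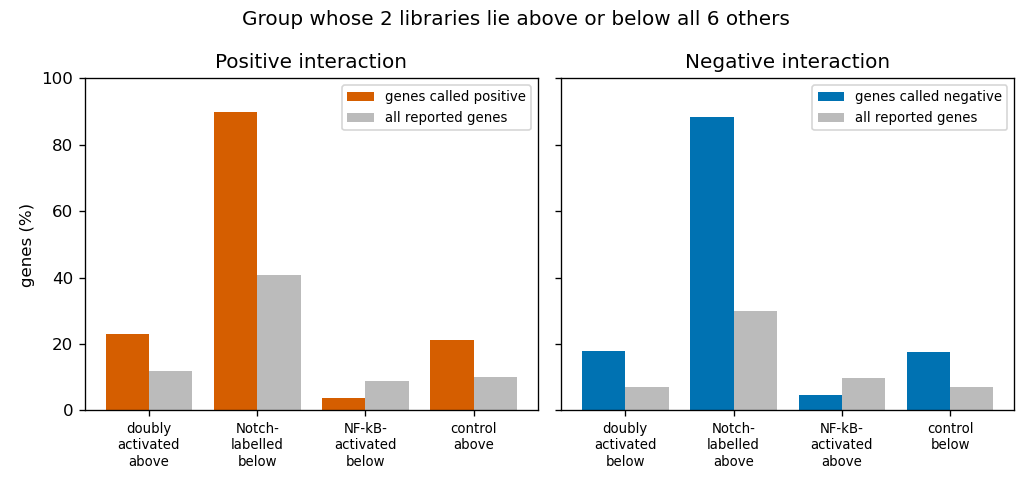
Percentage of genes for which both libraries of the named group lie above or below all 6 others, for genes called positive (orange) or negative (blue) and for all 9463 reported genes (grey). The Notch-labelled libraries stand apart in 90% of the positive and 88.5% of the negative genes.

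Immediate early genes were among the genes with large positive departures and the highest level in doubly activated cells. These genes, among them the AP-1 subunits Fos, Fosb and Jun, are transcribed within minutes of receptor stimulation or stress. Of 19 reported members of the list of immediate early and AP-1 genes, 16 were called positive, 1 negative (Batf, -1.40 ± 0.20) and 2 neither, with a median of 1.98 beside 0.126 over all reported genes. Calls over all reported genes were 34.5% positive and 22.8% negative. In 11 of the 19, both doubly activated libraries lay above all 6 others (11.8% of reported genes). Against NF-kB-activated cells, a comparison free of the Notch-labelled libraries, 13 rose and 2 fell in doubly activated cells (8.92% and 7.48% of reported genes). Promoters of 4 of them that hold a cAMP response element or its core are shown as examples, while Jun and Klf6 held no motif searched and Zfp36 a CArG box only: the 250 bases before the RefSeq start, on the gene's strand, in GRCm38.p6, with each full element TGACGTCA and each core TGACG (on either strand, so also CGTCA; the full element holds the core on both strands) in capitals. They are Fos at chr12:85473640-85473889 (plus strand), Fosb at chr7:19310046-19310295 (minus), Nr4a1 at chr15:101266596-101266845 (plus) and Dusp1 at chr17:26508473-26508722 (minus).
Fos: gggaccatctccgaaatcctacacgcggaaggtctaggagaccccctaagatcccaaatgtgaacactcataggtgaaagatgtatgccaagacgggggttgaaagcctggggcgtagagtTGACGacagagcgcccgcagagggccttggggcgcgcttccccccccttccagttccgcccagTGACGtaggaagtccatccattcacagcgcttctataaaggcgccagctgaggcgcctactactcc
Fosb: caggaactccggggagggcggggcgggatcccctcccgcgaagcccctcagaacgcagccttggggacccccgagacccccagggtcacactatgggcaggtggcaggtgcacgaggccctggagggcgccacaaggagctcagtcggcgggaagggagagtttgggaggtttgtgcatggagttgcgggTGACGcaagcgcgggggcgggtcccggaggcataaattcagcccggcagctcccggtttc
Nr4a1: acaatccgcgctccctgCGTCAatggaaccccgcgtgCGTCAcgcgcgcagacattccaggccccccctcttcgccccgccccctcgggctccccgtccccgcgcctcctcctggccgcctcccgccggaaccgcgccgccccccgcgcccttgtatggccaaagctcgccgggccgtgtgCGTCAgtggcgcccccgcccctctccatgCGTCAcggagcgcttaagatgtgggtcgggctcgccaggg
Dusp1: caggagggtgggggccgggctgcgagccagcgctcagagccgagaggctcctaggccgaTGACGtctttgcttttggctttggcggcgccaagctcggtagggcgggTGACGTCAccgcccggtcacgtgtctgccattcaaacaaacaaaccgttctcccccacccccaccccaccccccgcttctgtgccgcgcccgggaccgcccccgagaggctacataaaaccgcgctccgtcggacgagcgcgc

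The core TGACG was in this window in 7 of the 15 reported list members that matched a RefSeq promoter (46.7%), in 33.1% of 7437 matched reported genes and in 19.8% of all 27025 promoters. The full element was in 1 of the 15 (6.67%), in 3.21% of reported genes and in 1.77% of all promoters. The CArG box bound by serum response factor was in 2 of the 15 (13.3%), 1.26% of reported genes and 1.62% of all promoters. Among 592 matched positive genes with doubly activated libraries highest, the core was in 35.3%. A match is a run of letters, not a bound site.

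Fosb (chromosome 7, 19302696 to 19310051 in GRCm38), a Fos family subunit of AP-1, had an interaction of 9.94 ± 1.42 (adjusted p = 0.00268). It stood at 182 and 29.6 CPM in control, 5.03 and 7.85 CPM in NF-kB-activated, 13.5 and 13.0 CPM in Notch-labelled and 556 and 1041 CPM in doubly activated libraries. The NF-kB-activated libraries were below and the doubly activated ones above all others. The product of the ratios predicted 0.808 CPM. Against control, Fosb moved by -4.03 with the NIK allele alone (adjusted p = 0.0589), fell by 2.99 in Notch-labelled cells (adjusted p = 0.0363) and moved by 2.92 in doubly activated cells (adjusted p = 0.0764). The control libraries were far apart, and the interaction was 8.12 without control library 1 and 10.8 without control library 2.

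Fos (chromosome 12, 85473890 to 85477273) stood at 230 and 84.1 CPM in control, 18.9 and 23.2 CPM in NF-kB-activated, 41.5 and 51.2 CPM in Notch-labelled and 286 and 470 CPM in doubly activated libraries. The order was the one seen for Fosb. The interaction of Fos was 5.92 ± 0.78 (adjusted p = 0.00173), with a fall of 2.90 under the NIK allele alone (adjusted p = 0.0249) and a rise of 3.03 under the same allele beside Notch2 (adjusted p = 0.00432). Doubly activated and control cells differed by 1.27, which was not called (adjusted p = 0.158). Nr4a1, an orphan nuclear receptor induced by antigen receptor signalling, stood at 125 and 85.2 CPM in control, 39.8 and 36.5 CPM in NF-kB-activated, 67.7 and 80.7 CPM in Notch-labelled and 248 and 431 CPM in doubly activated libraries. The NF-kB-activated libraries were again lowest and the doubly activated ones highest, with no overlap. Its interaction was 3.65 ± 0.43 (adjusted p = 0.00054), and under the NIK allele it fell by 1.46 without the Notch2 allele (adjusted p = 0.0237) and rose by 2.19 with it (adjusted p = 0.000743). Nr4a1 was higher in doubly activated than in control cells by 1.69 (adjusted p = 0.00953).

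Ppp1r15a, which restarts translation after stress by bringing a phosphatase to eIF2alpha, stood at 215 and 53.8 CPM in control, 32.7 and 36.1 CPM in NF-kB-activated, 29.2 and 30.0 CPM in Notch-labelled and 444 and 794 CPM in doubly activated libraries. Both singly activated groups lay below every control and doubly activated library. The interaction was 6.35 ± 1.01 (adjusted p = 0.00389), while doubly activated and control cells differed by 2.21, which was not called (adjusted p = 0.0819). Klf6, a zinc finger factor, had 4.62 ± 0.39 (adjusted p = 8.28e-05), Dusp1, a phosphatase that shuts off MAP kinases, 4.57 ± 0.79 (adjusted p = 0.00509), and Jun 3.64 ± 0.67 (adjusted p = 0.00643). Zfp36, an mRNA decay factor and feedback regulator, had the smallest p of the list, with 461 ± 52.5 CPM in control, 222 ± 23.1 in NF-kB-activated, 120 ± 2.62 in Notch-labelled and 718 ± 168 CPM in doubly activated cells (3.64 ± 0.21, adjusted p = 5e-07). The libraries of a group were uneven for these genes: control library 1 was above control library 2 and doubly activated library 2 above library 1 for each of Fosb, Fos, Nr4a1, Ppp1r15a, Klf6, Jun and Dusp1. Their interaction was nonetheless called without any 1 of the 8 libraries.

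**Figure D3:**
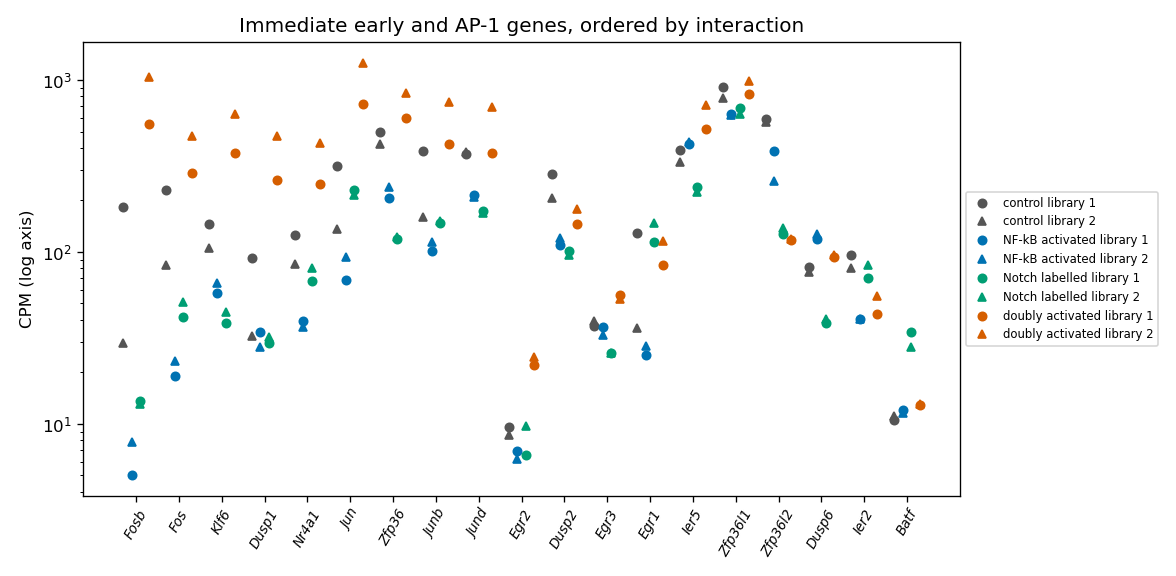
Level (CPM, log axis) of the 19 reported immediate early and AP-1 genes in each of 8 libraries, ordered from the highest interaction (Fosb, 9.94) to the lowest (Batf, -1.40). The doubly activated libraries lie above all others in 11 of the genes, and control library 1 is often well above control library 2.

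Other genes of varied function were also highest in doubly activated cells. Lrrk2, a large kinase and GTPase abundant in B cells, stood at 529 and 461 CPM in control, 602 and 629 CPM in NF-kB-activated, 10.1 and 12.7 CPM in Notch-labelled and 970 and 938 CPM in doubly activated libraries. The doubly activated libraries were highest, but most of the interaction of 6.07 ± 0.18 (adjusted p = 1.24e-09) lay in the low Notch-labelled level: against NF-kB-activated cells the rise was 0.63 (adjusted p = 0.00343). Ceacam2, an adhesion receptor, had 14.2 ± 6.29 CPM in control, 5.63 ± 0.553 in NF-kB-activated, 1.09 ± 0.483 in Notch-labelled and 21.6 ± 2.79 CPM in doubly activated cells (5.63 ± 0.51, adjusted p = 3.89e-06). Cd69, the early activation antigen that holds lymphocytes in tissue by removing S1PR1, had 46.4 ± 10.2, 32.4 ± 3.58, 5.96 ± 0.726 and 165 ± 47.1 CPM in the same order (5.31 ± 0.34, adjusted p = 5.38e-06).

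In 149 of the positive genes the doubly activated libraries stood apart and the Notch-labelled ones did not. The Notch-labelled level could still differ from control among these 149 genes, as it did for Stat2, described below. In 142 of them, 136 with control not apart and 6 with control lowest, the doubly activated level was the highest, and in the remaining 7 it was the lowest while control was highest. Gla, the lysosomal alpha-galactosidase that trims glycolipids, stood at 12.3 and 6.31 CPM in control, 4.98 and 6.12 CPM in NF-kB-activated, 9.44 and 15.1 CPM in Notch-labelled and 61.0 and 109 CPM in doubly activated libraries. Only the doubly activated libraries were high, and the interaction was 3.52 ± 0.60 (adjusted p = 0.0024). S1pr3, the sphingosine phosphate receptor that marginal zone B cells carry, stood at 113 and 87.4 CPM in control, 90.9 and 74.0 CPM in NF-kB-activated, 121 and 124 CPM in Notch-labelled and 238 and 257 CPM in doubly activated libraries. It too was high in doubly activated cells only (1.29 ± 0.19, adjusted p = 0.000158). Egr2, a zinc finger factor induced by antigen receptor signalling, followed with 9.12 ± 0.665, 6.57 ± 0.484, 8.14 ± 2.18 and 23.3 ± 1.79 CPM (1.98 ± 0.29, adjusted p = 0.000124), and Gem, a small GTPase, with an interaction of 2.31 ± 0.37 (adjusted p = 0.00114).

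Stat2, the interferon signal transducer, showed another course. It stood at 214 and 216 CPM in control, 115 and 136 CPM in NF-kB-activated, 112 and 115 CPM in Notch-labelled and 219 and 226 CPM in doubly activated libraries. Stat2 fell by 0.78 with NIK alone (adjusted p = 5.79e-05) and fell by 0.92 in Notch-labelled cells (adjusted p = 1.33e-06), and the doubly activated libraries lay just above the control ones, giving 1.75 ± 0.12 (adjusted p = 3.42e-07).

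Among negative genes, doubly activated cells were lowest in 387. Cd300lf, an inhibitory receptor for lipids mostly known from myeloid cells, stood at 62.2 and 43.7 CPM in control, 58.4 and 56.7 CPM in NF-kB-activated, 188 and 177 CPM in Notch-labelled and 13.0 and 12.9 CPM in doubly activated libraries. It was highest in Notch-labelled and lowest in doubly activated cells, with an interaction of -3.94 ± 0.19 (adjusted p = 4.22e-08) and a fall of 2.15 against NF-kB-activated cells (adjusted p = 6.75e-06). Nid1, a basement membrane glycoprotein, stood at 25.7 and 30.4 CPM in control, 53.5 and 40.8 CPM in NF-kB-activated, 189 and 183 CPM in Notch-labelled and 13.8 and 17.3 CPM in doubly activated libraries (-4.33 ± 0.21, adjusted p = 5.26e-08). The doubly activated libraries lay below the control ones although each singly activated group lay above them. Actn1, an actin crosslinker, had the same order of means (-4.46 ± 0.62, adjusted p = 0.00109), as had Spn, the sialophorin CD43 of B1 and activated B cells (-3.34 ± 0.33, adjusted p = 7.25e-05), and Ckap4, a protein of the rough endoplasmic reticulum (-3.43 ± 0.29, adjusted p = 1.61e-05). The stromal marker sum was highest in the Notch-labelled libraries, and its part in the levels of Nid1 and Actn1 was not tested.

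In 66 of the 89 negative genes whose Notch-labelled libraries did not stand apart, 64 of them with control not apart and 2 with control highest, doubly activated cells were lowest. Trib2, a pseudokinase and reported Notch target in leukaemia, stood at 32.4 and 43.9 CPM in control, 32.0 and 33.1 CPM in NF-kB-activated, 36.4 and 31.9 CPM in Notch-labelled and 6.29 and 5.75 CPM in doubly activated libraries. Neither allele alone passed the test (-0.23, adjusted p = 0.342, and -0.16, adjusted p = 0.336), and from NF-kB-activated to doubly activated cells it fell by 2.43 (adjusted p = 5.65e-06). The interaction was -2.27 ± 0.22 (adjusted p = 4.56e-06). Id3, the inhibitor of E proteins, behaved alike at 37.1 ± 5.32, 29.4 ± 0.875, 34.1 ± 4.62 and 12.3 ± 0.94 CPM (-1.14 ± 0.21, adjusted p = 0.000692). Atp1b1, a sodium pump subunit, and Dmwd were raised by the NIK allele alone (1.27, adjusted p = 0.0289, and 1.13, adjusted p = 0.00486) and were lowest with both alleles, with interactions of -2.29 ± 0.49 (adjusted p = 0.00245) and -1.66 ± 0.33 (adjusted p = 0.00138).

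The remaining 23 of those negative genes had doubly activated cells highest and control lowest: each allele came with a higher level, and both together with less than the product. Ackr3, an atypical receptor that scavenges CXCL12 and is known from marginal zone B cells, stood at 9.52 and 6.63 CPM in control, 204 and 230 CPM in NF-kB-activated, 156 and 142 CPM in Notch-labelled and 245 and 324 CPM in doubly activated libraries. Only the control libraries were low. The rise over control was 4.75 with the NIK allele (adjusted p = 1.51e-07) and 4.22 in Notch-labelled cells (adjusted p = 2.73e-08), the product of the ratios was 4009 CPM and the sum of the differences 358 CPM, against 284 ± 55.7 CPM observed. The interaction was -3.83 ± 0.24 (adjusted p = 8.61e-07). Rgs12, which turns off G protein signals, had the same form with 6.07 ± 0.198 CPM in control, 69.1 ± 9.7 in NF-kB-activated, 52.7 ± 2.23 in Notch-labelled and 87.2 ± 14.4 CPM in doubly activated cells (-2.79 ± 0.19, adjusted p = 3.21e-07).

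Genes highest in NF-kB-activated cells included some raised in all 3 activated groups. Hspg2, the basement membrane proteoglycan perlecan, stood at 7.56 and 7.99 CPM in control, 784 and 715 CPM in NF-kB-activated, 85.1 and 97.5 CPM in Notch-labelled and 493 and 531 CPM in doubly activated libraries. Control was lowest, and the NIK allele raised Hspg2 by 6.59 from control (adjusted p = 2.74e-11) and by 2.49 from the Notch-labelled level (adjusted p = 1.98e-09), an interaction of -4.10 ± 0.15 (adjusted p = 4.17e-09). Lipc, hepatic lipase, stood at 6.45 and 3.91 CPM in control, 72.3 and 67.9 CPM in NF-kB-activated, 54.4 and 54.7 CPM in Notch-labelled and 52.8 and 65.6 CPM in doubly activated libraries. All activated libraries lay far above control and near each other, and beside the Notch2 allele the NIK allele moved Lipc by 0.12 (adjusted p = 0.508). Its interaction was -3.65 ± 0.24 (adjusted p = 8.46e-07), and that of Ahcyl2, a relative of an inositol phosphate receptor regulator, was -2.97 ± 0.17 (adjusted p = 8.62e-08) with a like course.

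Genes of the marginal zone and positioning lists were among those lowest in NF-kB-activated cells. Plac8, a small cysteine-rich protein of marginal zone B cells, stood at 368 and 306 CPM in control, 126 and 119 CPM in NF-kB-activated, 291 and 296 CPM in Notch-labelled and 320 and 359 CPM in doubly activated libraries. Under the NIK allele it fell by 1.46 without the Notch2 allele (adjusted p = 1.49e-06), while beside that allele the difference was 0.21 (adjusted p = 0.0815), and the interaction was 1.67 ± 0.14 (adjusted p = 1.75e-06). S1pr1, the receptor that draws lymphocytes towards the blood, stood at 419 and 372 CPM in control, 193 and 216 CPM in NF-kB-activated, 349 and 321 CPM in Notch-labelled and 334 and 364 CPM in doubly activated libraries. Only the NF-kB-activated libraries were low. It fell by 0.95 with the NIK allele alone (adjusted p = 1.75e-05), differed by 0.06 with it beside Notch2 (adjusted p = 0.568), and had an interaction of 1.01 ± 0.13 (adjusted p = 3.56e-05).

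**Figure D4:**
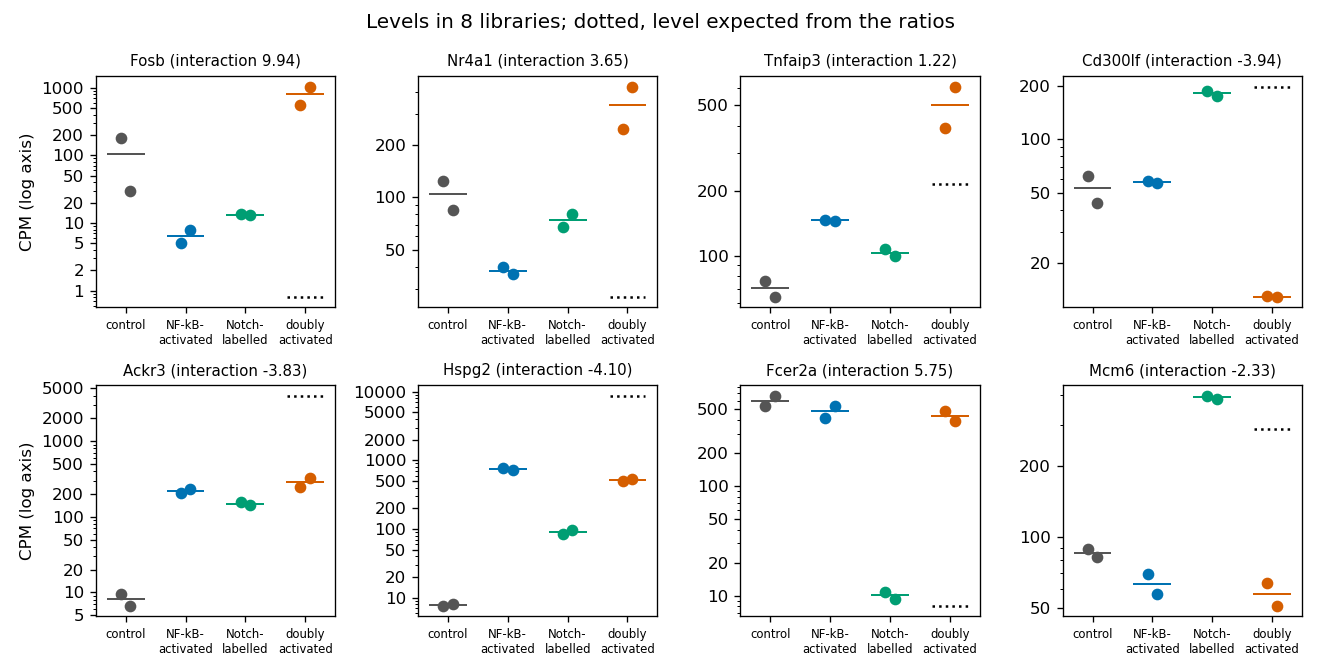
Levels (CPM, log axis) of 8 genes in the 4 groups; points are libraries, lines group means and dotted lines the doubly activated level expected from the product of the ratios. Fosb, Nr4a1 and Tnfaip3 were highest and Cd300lf lowest in doubly activated cells, Ackr3 and Hspg2 were low in control alone, and Fcer2a and Mcm6 stood apart in Notch-labelled libraries.

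Other large departures lay mainly in the level of the Notch-labelled libraries. Ccr6, a chemokine receptor of mature B cells, had 107 ± 3.81 CPM in control, 172 ± 5.33 in NF-kB-activated, 1.07 ± 0.465 in Notch-labelled and 125 ± 17.3 CPM in doubly activated cells (6.17 ± 0.27, adjusted p = 3.52e-08). Ms4a4c, a CD20 family protein, had 109 ± 0.219, 82.5 ± 24.0, 1.24 ± 0.642 and 61.3 ± 17.6 CPM (6.03 ± 0.52, adjusted p = 9.15e-05). Tsc22d3, the glucocorticoid-induced leucine zipper gene and a FOXO target, had control highest (359 ± 49.9, 123 ± 34.6, 12.6 ± 1.73 and 220 ± 57.1 CPM; 5.68 ± 0.37, adjusted p = 1.77e-05). Negative genes had the reverse form: Fn1, fibronectin, with 7.15 ± 1.5, 8.67 ± 3.0, 266 ± 58.4 and 6.18 ± 0.234 CPM (-5.70 ± 0.37, adjusted p = 4.88e-06), App, the amyloid precursor (-5.16 ± 0.35, adjusted p = 2.36e-06), and Plxnb2, a semaphorin receptor (-4.59 ± 0.16, adjusted p = 2.22e-09). Fibronectin is made in quantity by fibroblasts and macrophages. Col1a1, a fibroblast collagen gene, was at 209 CPM in Notch-labelled cells and at 1.21 to 1.83 CPM in the other groups, and its part in the Fn1 level was not tested. Another 91 called genes were under 1 CPM in the Notch-labelled libraries, among them Map3k19 (5 and 12 counts there), P2ry10b (11 and 9) and Slamf1 (19 and 14), and size estimates of such genes are loose.

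Components of the NF-kB pathway departed mostly upward. Of 30 subunits, inhibitors and adaptors, all reported, 24 were called positive, 1 negative and 5 neither, with a median of 0.695. Among all reported genes, 34.5% were positive and 22.8% negative. Doubly activated libraries were above all others in 13 of the 30 (11.8% of reported genes) and Notch-labelled libraries below all others in 22 (40.9%). Birc3, a ubiquitin ligase of the complex that restrains NIK, had 243 ± 5.32 CPM in control, 317 ± 10.1 in NF-kB-activated, 101 ± 0.481 in Notch-labelled and 354 ± 11.5 CPM in doubly activated cells (1.42 ± 0.10, adjusted p = 4.25e-07). Nfkb2 itself had 321 ± 47.2, 619 ± 0.827, 206 ± 3.99 and 668 ± 20.7 CPM (0.75 ± 0.13, adjusted p = 0.000461), and did not pass a test beyond 1.5-fold. Against NF-kB-activated cells, 6 of the 30 rose in doubly activated cells (8.92% of reported genes).

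Tnfaip3, the deubiquitinase A20 that ends NF-kB signalling, was one of the 6. It stood at 76.4 and 64.2 CPM in control, 147 and 145 CPM in NF-kB-activated, 107 and 99.3 CPM in Notch-labelled and 391 and 613 CPM in doubly activated libraries. Each allele came with a rise over control, by 1.06 for NIK (adjusted p = 0.00559) and 0.55 for Notch-labelled cells (adjusted p = 0.0284), and both together gave 502 ± 157 CPM against a product of 215 CPM (1.22 ± 0.26, adjusted p = 0.00427). Rel, the canonical subunit c-Rel, had 138 ± 13.9, 101 ± 1.29, 39.8 ± 0.519 and 185 ± 43.1 CPM (2.66 ± 0.22, adjusted p = 5.53e-06), and Nfkbiz, a nuclear IkB protein, had 2.04 ± 0.31 (adjusted p = 0.000999). Traf1, a signalling adaptor and NF-kB target, had 71.5 ± 4.43, 229 ± 0.932, 43.6 ± 0.225 and 294 ± 17.9 CPM (1.08 ± 0.12, adjusted p = 1.11e-05).

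Of 21 reported NF-kB induced genes, 10 were called positive, 4 negative and 7 neither (median 0.476), beside 34.5% positive and 22.8% negative over all reported genes. The median over all 29 tested members was 0.0952. Il12a, a cytokine subunit, had 13.2 ± 0.039, 56.0 ± 3.57, 1.09 ± 0.0085 and 50.5 ± 0.429 CPM (3.44 ± 0.19, adjusted p = 6.89e-08). Bcl2a1b, a survival gene with near-identical copies among which counts may be split, had 30.7 ± 1.72, 54.9 ± 0.618, 12.3 ± 1.18 and 89.2 ± 0.953 CPM (2.02 ± 0.16, adjusted p = 1.05e-06). Tnf went the other way, with 17.0 ± 6.53, 23.6 ± 2.91, 33.4 ± 3.98 and 7.74 ± 1.88 CPM (-2.57 ± 0.36, adjusted p = 0.000165), lowest in doubly activated cells.

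Notch pathway genes were called at about the rate of reported genes at large (34.5% positive and 22.8% negative). Of 21 reported receptors, ligands and modifiers, 7 were called positive, 4 negative and 10 neither, and the median of 0.135 became -0.0404 with scaling by library size alone. Psen2, a gamma-secretase subunit that releases the intracellular domain, had 101 ± 9.63 CPM in control, 88.8 ± 1.22 in NF-kB-activated, 25.4 ± 2.02 in Notch-labelled and 77.7 ± 5.24 CPM in doubly activated cells (1.80 ± 0.13, adjusted p = 6.09e-07). Notch1 was high in Notch-labelled cells alone (57.2 ± 5.42, 50.9 ± 5.98, 214 ± 3.08 and 60.7 ± 2.44 CPM; -1.65 ± 0.14, adjusted p = 2.07e-06), and its call was lost with effective transcript lengths as an offset (-0.86, adjusted p = 0.467).

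Of 12 reported Notch target genes, 4 were called positive, 6 negative and 2 neither (34.5% and 22.8% of reported genes were positive and negative), with a median of -0.406. Against NF-kB-activated cells, 7 of the 12 rose in doubly activated cells and 2 fell (8.92% and 7.48% of reported genes). Dtx1, a ubiquitin ligase of the pathway, stood at 718 and 680 CPM in control, 857 and 669 CPM in NF-kB-activated, 1021 and 959 CPM in Notch-labelled and 1346 and 1609 CPM in doubly activated libraries. Both groups with the Notch2 allele lay above both without it, and the rise was 0.50 from control (adjusted p = 0.00326) and 0.95 from NF-kB-activated cells (adjusted p = 0.000464). Its interaction of 0.45 ± 0.17 (adjusted p = 0.0454) was called in 7 of 19 alternative settings only. Hes1, a transcriptional repressor, had 65.7 ± 19.8, 41.5 ± 1.24, 54.4 ± 0.772 and 71.2 ± 11.7 CPM (1.05 ± 0.26, adjusted p = 0.00711, lost with the length offset and with a test beyond 1.5-fold). Myc, the growth regulator, stood at 246 and 125 CPM in control, 130 and 96.7 CPM in NF-kB-activated, 286 and 282 CPM in Notch-labelled and 496 and 747 CPM in doubly activated libraries. It was highest in doubly activated cells, but its interaction of 1.83 ± 0.51 (adjusted p = 0.0286) was called in 12 of 19 settings and was lost without either Notch-labelled library, either NF-kB-activated library or doubly activated library 2. Asb2, a Notch-induced ubiquitin ligase subunit, had 32.4 ± 3.48, 152 ± 21.1, 128 ± 9.53 and 395 ± 77.4 CPM, raised by each allele and highest with both, though below the product (-0.61 ± 0.20, adjusted p = 0.0265, lost without library 1 of any group).

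Marginal zone B cell genes were called positive in 14 of 27, negative in 5 and neither in 8 (median 0.543), beside 34.5% positive and 22.8% negative over all reported genes. Doubly activated libraries were above all others in 12 of the 27 (11.8% of reported genes). Against NF-kB-activated cells 14 rose and 1 fell (8.92% and 7.48% of reported genes). Cr2 had 2384 ± 724, 2518 ± 126, 110 ± 0.643 and 2903 ± 50.6 CPM (4.64 ± 0.26, adjusted p = 8.95e-07), and Ebf1, a B lineage factor, 332 ± 26.4, 265 ± 12.2, 45.9 ± 1.33 and 347 ± 14.8 CPM (3.24 ± 0.12, adjusted p = 4.18e-09). Itgb1, the integrin beta 1 chain, was negative with 54.5 ± 4.75, 82.6 ± 10.3, 216 ± 25.5 and 54.2 ± 1.87 CPM (-2.59 ± 0.15, adjusted p = 1.16e-07), and so was Cd9 (-1.24 ± 0.25, adjusted p = 0.0027).

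Follicular B cell genes were positive in 15 of 15, with a median of 2.67. Notch-labelled libraries were below all others in 14 of them (40.9% of reported genes). The counts of this and the next 3 lists stand beside 34.5% positive and 22.8% negative over all reported genes. Fcer2a stood at 531 and 668 CPM in control, 421 and 537 CPM in NF-kB-activated, 10.8 and 9.38 CPM in Notch-labelled and 480 and 391 CPM in doubly activated libraries. Precursor groups overlapped, the Notch-labelled libraries stood far below, and the interaction was 5.75 ± 0.23 (adjusted p = 5.35e-08). Positioning receptors and RGS genes gave 19 positive and 1 negative of 20 (median 1.54), the B cell receptor list 19 positive, 2 negative and 4 neither of 25 (median 0.794), and the MHC class II and costimulation list 16 positive and 1 neither of 17 (median 1.32). P2ry10, a lysophospholipid receptor, had the smallest p of the first of these, with 176 ± 25.6, 117 ± 14.8, 3.87 ± 0.17 and 94.0 ± 0.234 CPM (5.19 ± 0.18, adjusted p = 2.3e-09). Icosl, the ligand of ICOS on T cells, had 387 ± 17.6, 643 ± 77.6, 29.0 ± 0.0215 and 473 ± 20.6 CPM (3.29 ± 0.13, adjusted p = 6.01e-09). For these lists the T cell and stromal marker sums moved with the group that stood apart, although Trac did not rise over control there, and their part was not tested.

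Cell cycle genes were negative in 27 of 28 (22.8% of reported genes), with a median of -2.15. The Notch-labelled libraries were above all others in 27 (30.1% of reported genes). Mcm6, a subunit of the replicative helicase, stood at 88.9 and 82.3 CPM in control, 69.3 and 57.0 CPM in NF-kB-activated, 399 and 384 CPM in Notch-labelled and 63.4 and 50.9 CPM in doubly activated libraries. Only the Notch-labelled libraries were high, and the interaction was -2.33 ± 0.16 (adjusted p = 3.84e-07). Mcm3, of the same helicase, had -2.13 ± 0.13 (adjusted p = 1.01e-07). Against NF-kB-activated cells, 4 of the 28 rose and 1 fell in doubly activated cells (8.92% and 7.48% of reported genes). Myc network and ribosome biogenesis genes gave 8 positive, 14 negative and 4 neither of 26 (median -0.358), beside 34.5% positive and 22.8% negative over all reported genes, while 9 of the 26 rose against NF-kB-activated cells (8.92% of reported genes). Cad, the first enzyme of pyrimidine synthesis, had 130 ± 12.9, 122 ± 20.0, 346 ± 16.6 and 103 ± 3.49 CPM (-1.66 ± 0.15, adjusted p = 3.35e-06). Glycolysis genes gave 5 positive, 10 negative and 4 neither of 19 (median -0.402), led by Pkm (-1.98 ± 0.14, adjusted p = 3.7e-07) and Gapdh (-1.61 ± 0.12, adjusted p = 5.79e-07), both highest in Notch-labelled cells.

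Plasma cell and secretory genes were negative in 16 of 26, positive in 4 and neither in 6 (median -0.492). For this list and the MHC class I list, the shares over all reported genes are 22.8% negative and 34.5% positive. In 10 of the 26, doubly activated libraries were below all others (7% of reported genes). In 16 of them, Notch-labelled libraries were above all others (30.1% of reported genes). Creld2, an endoplasmic reticulum stress protein, had 27.3 ± 2.7, 29.6 ± 0.347, 103 ± 0.751 and 24.4 ± 1.39 CPM (-2.18 ± 0.13, adjusted p = 1.01e-07). Pdia6, a disulfide isomerase, had 139 ± 5.78, 117 ± 0.465, 322 ± 3.75 and 93.6 ± 5.22 CPM (-1.53 ± 0.11, adjusted p = 4.56e-07). Ero1lb, an oxidase of the same compartment, was positive (1.97 ± 0.10, adjusted p = 4.04e-08). MHC class I and peptide loading genes gave 1 positive, 9 negative and 8 neither of 18 (median -0.361), led by Nlrc5, their transactivator (-1.38 ± 0.11, adjusted p = 1.4e-06).

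**Figure D5:**
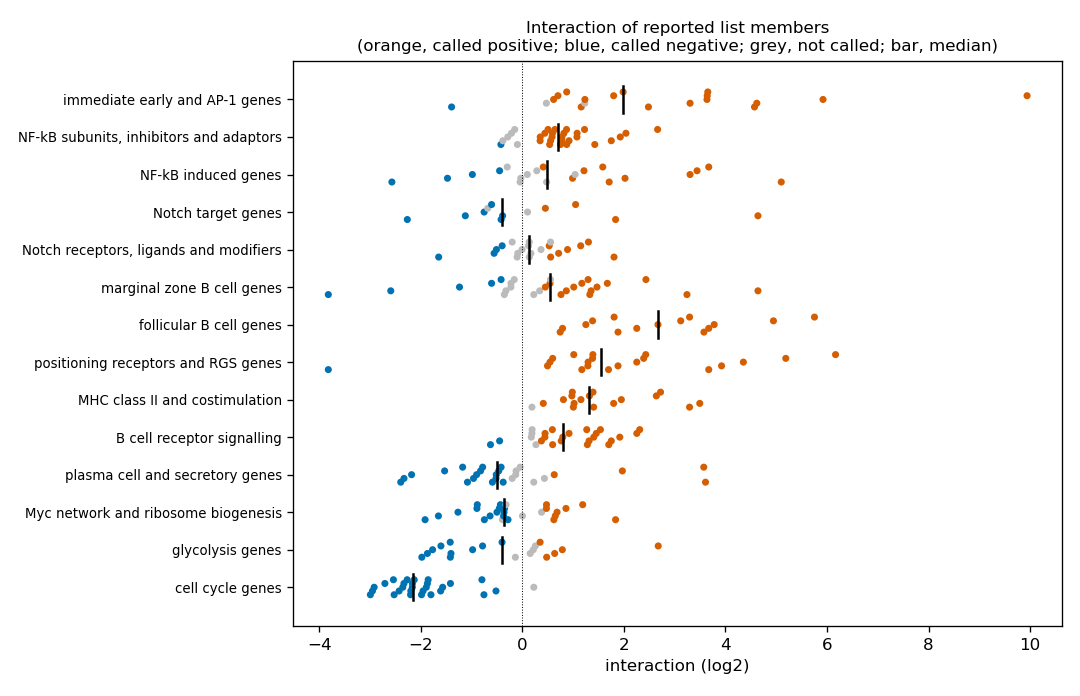
Interaction (log2) of the reported members of 14 gene lists; each point is a gene, coloured by its call, and the bar is the list's median. Follicular genes lie wholly above 0 (median 2.67), 27 of 28 cell cycle genes below (median -2.15), and the Notch lists on both sides.

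The remaining lists are to be read against 34.5% positive and 22.8% negative over all reported genes, and several lie near these shares. Inhibitory coreceptors and phosphatases gave 13 positive and 2 negative of 17 reported genes, B lineage transcription factors 15 and 4 of 26, toll-like receptor genes 12 and 2 of 19, TNF family and cytokine receptors 10 and 5 of 18, integrins and adhesion 10 and 5 of 20, and Bcl2 family and death genes 10 and 6 of 21. Cyclins, inhibitors and p53 genes gave 9 positive and 6 negative of 18, chromatin regulators 9 and 8 of 25, interferon response genes 8 and 7 of 22, heat shock genes 5 and 3 of 16, and amino acid response genes 4 and 5 of 11. Cholesterol genes gave 3 and 6 of 22 and germinal centre genes 2 and 4 of 9. Il10ra, the interleukin 10 receptor, was highest in control (340 ± 31.8, 116 ± 0.349, 65.7 ± 2.09 and 133 ± 6.74 CPM), fell by 1.55 with the NIK allele alone (adjusted p = 2.29e-07) and had an interaction of 2.56 ± 0.12 (adjusted p = 2.68e-08). Gbp2, an interferon-induced GTPase, was highest in Notch-labelled cells (25.0 ± 1.55, 34.1 ± 6.31, 286 ± 6.61 and 60.7 ± 0.609 CPM; -2.69 ± 0.15, adjusted p = 8.49e-08). Btg1, which slows B cell proliferation, was highest with both alleles (975 ± 215, 771 ± 28.0, 248 ± 3.24 and 1366 ± 154 CPM; 2.80 ± 0.19, adjusted p = 5e-07). Of T cell markers 5 were reported, with 3 called, and no neutrophil or erythroid marker passed the 5 CPM limit.

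The effect of an allele was set side by side on both backgrounds, in contrasts that share no library. NF-kB-activated cells differed from control in 1736 reported genes (18.3%, with 9.52% higher and 8.82% lower). Doubly activated cells differed from Notch-labelled ones, of another cell label, in 6729 (71.1%, with 42.6% higher and 28.5% lower). Of the genes higher in NF-kB-activated cells than in control, 604 (67%) were also higher in doubly activated than in Notch-labelled cells and 150 were lower. Of those lower in NF-kB-activated cells, 349 (41.8%) were lower and 343 (41.1%) higher in that comparison, Fos, Nr4a1 and Zfp36 among the latter. Notch-labelled cells differed from control in 6676 genes (70.5%; 29.9% rose and 40.6% fell), whereas doubly activated cells differed from NF-kB-activated ones, of the same cell label, in 1552 (16.4%). Both comparisons went up in 338 genes and down in 434, and in opposite directions in 287 and 130, and 40% of the genes raised and 61.3% of those lowered among precursors moved the same way in the Notch-labelled comparison. The median absolute difference of a reported gene was 0.174 for the former (doubly against NF-kB-activated) and 0.543 for the latter (Notch-labelled against control).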

How the data were processed

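RNA of FACS-sorted cells was purified on RNeasy columns and made into Illumina libraries, per the labels' protocols. The authors deposited, for each library, estimated counts of 88198 transcripts, not normalized per the file headers and values, and TPM, made with kallisto 0.44.0 and build mm10 per the submitters' processing notes. No source used here names the transcript release. By identifier 86119 transcripts matched GENCODE M21 (GRCm38), giving 30284 genes, of which 60 share a symbol, and the 2079 unmatched ones held 1.01% to 1.28% of the counts. The deposited TPM served only for effective lengths in an alternative. For each gene the estimated counts were added up and rounded to whole numbers.

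Genes were tested with edgeR 4.0.16 (filterByExpr with minimum count 10 and total 15, TMM, robust quasi-likelihood model, 5 groups over the 10 libraries, 5 residual degrees of freedom, biological coefficient of variation 0.1206), two-sided, with Benjamini-Hochberg adjustment over 15604 genes and calls under 0.05. CPM are TMM-scaled. In simulated data of 15324 genes the interaction step recovered 16% of 1.5-fold, 64% of 2-fold, 96% of 4-fold and 98% of 8-fold departures, with 6.16% false calls. Only a small set of genes was given a departure there, and 146 genes were called, against 7724 in the data. The cutoff on p was therefore stricter in the simulation, and its rates need not hold for the data. Across pairs of groups the deviations of same-numbered libraries correlated at -0.118 to 0.107 over 10384 genes, so numbers were not taken to pair libraries.

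The genes and the 33 gene lists were chosen with earlier results of these data known, and the lists came from textbook knowledge. Named by rule were, among reported called genes with at least 1 CPM in Notch-labelled cells (no predicted genes, receptor segments, Y-linked genes or Xist), the largest departures of each sign for each group standing apart (5 for doubly activated, 4 for Notch-labelled, 3 for NF-kB-activated, 2 for control), the 2 smallest p of each list, Map3k14 and Notch2, and the 3 smallest p under 1 CPM. The text gives most of the 79 genes so chosen. Some are not reported here. Chosen after their values were seen were Klf6, Dusp1, Jun, Egr2, Gla, S1pr3, Gem, Cd69, Id3, Atp1b1, Dmwd, Ackr3, Rgs12, Plac8, S1pr1, Tnfaip3, Rel, Nfkbiz, Traf1, Nfkb2, Tnf, Dtx1, Hes1, Myc, Asb2, Cd9, Cd79a, Batf, Pdia6, Col1a1, Trac, Cd3e, and the V segment shares.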

Additional observations from a re-analysis of the deposited data

Results flagged for a closer look

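A difference between backgrounds, by the test of the difference itself, was positive in 3266 reported genes and negative in 2155. The Notch-labelled group also differs in cell label, so these counts cannot be given to the alleles alone. For 343 genes the NIK allele came with a fall against control and with a rise against Notch-labelled cells, and for 150 with a rise and then a fall. Notch-labelled cells lay below control and doubly activated above NF-kB-activated cells in 287 genes, and the reverse held in 130. All of the genes in these 4 sets were called for the interaction. That interaction is the difference of the effects that define the sets, so the calls follow largely from the choice and add no support. No group had enough libraries for a check of single outlying libraries.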

How the results depend on the processing

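Under 19 other fits (RLE size factors, library size alone, 2 other filters, DESeq2, limma-voom, no lymphoma libraries, a replicate block, receptor segments removed, effective lengths as an offset, a minimum departure of 1.5-fold and each library left out), 1500 of 1501 values of the 79 genes chosen by rule kept direction and call, the exception being Notch1 with the length offset. Counts of calls stayed within 1.5 times, except that a minimum departure of 1.5-fold left 4622 of all tested genes, 1689 positive and 993 negative reported ones. Leaving out 1 library gave 6455 to 7832 calls over all genes, 2810 to 3372 positive and 1695 to 2094 negative reported ones; the lone library of a group was then assumed to vary like the other groups. With a replicate block there were 7394, 3159 and 2069. Scaling by library size alone gave 2578 positive and 2887 negative ones, and moved the chromatin list's median from 0.0174 to -0.16 (RLE: -0.00342). Limits of 1 and 10 CPM gave 3580 and 3056 positive and 2734 and 1829 negative genes, and a limit of 5 CPM in Notch-labelled cells too 2976 and 2155. Of calls shared with these fits, 6 changed sign, all with the length offset. Without the Notch-labelled libraries the interaction cannot be formed. In simulation most departures of 1.5-fold were missed, but few genes departed there, so that rate need not hold for these data.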

Other observations

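The lymphoma libraries, which carry both alleles and entered no contrast above, were read for the genes that stood apart in doubly activated cells. Of the 149 positive genes whose Notch-labelled libraries did not stand apart, both lymphoma libraries lay below both doubly activated ones in 103 (69.1%) and above in 25 (16.8%), beside 42.7% and 38.2% of all 9463 reported genes. Of the 89 negative ones they lay above in 52 (58.4%) and below in 23 (25.8%). These genes were chosen for their doubly activated level, so the direction is in part fixed by that choice. Of the 19 reported immediate early and AP-1 genes, 17 were lower in lymphoma and 2 higher: Fosb stood at 261 and 273 CPM, Fos at 135 and 123 CPM and Nr4a1 at 37.3 and 35.6 CPM. Lipc stood at 478 and 421 CPM, Ackr3 at 391 and 361 CPM and Cd300lf at 368 and 383 CPM, while Trib2 stayed low at 8.09 and 7.71 CPM.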
